A study of Rattus norvegicus with 6 samples.

Results

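The accessible sites (ACS) described here are those whose nearest gene encodes a subunit or assembly factor of the mitochondrial respiratory chain or of the ATP synthase. They were taken by gene symbol, as every ACS assigned to a gene whose name starts with *Nduf* (complex I), *Sdha* to *Sdhd* (complex II), *Uqcr* (complex III), *Cox4* to *Cox8* (complex IV) or *Atp5* (ATP synthase, complex V). The rule found 310 of the 101603 ACS, at 72 genes on 20 chromosomes, and these 310 are called chain ACS below. The rule reads gene symbols and no accessibility value, but it was set with earlier results of these data known. Each ACS is itself a peak called in these libraries. An ACS carries the name of the nearest gene, which is a position and not a shown target.

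Accessibility was measured by ATAC-seq, in which the Tn5 transposase inserts sequencing adapters into open DNA, in dissociated islet cells of Sprague-Dawley rats. The Adult group held 3 libraries, numbered 4 to 6, each from 1 male rat of about 3 months. The P10 group held 3 libraries, numbered 1 to 3, from pooled pups of 3 litters at postnatal day 10. The paper kept male and female pups and does not give the sex of those in these pools. The labels name no transgene and no treatment. By the paper's methods, pooled pup pancreases were digested by hand shaking, and Adult ones after collagenase was injected into the duct. Age, islet isolation, single rat against pooled pups and possibly sex differ together between the groups and cannot be told apart.

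Complexes I to IV pass electrons from NADH and succinate through ubiquinone and cytochrome c to oxygen and, except for complex II, pump protons across the inner mitochondrial membrane. The ATP synthase uses the proton gradient to make ATP. In the beta cell the rise in ATP at high glucose closes potassium channels and leads to insulin release, so this machinery links glucose to secretion. A small set of subunits of complexes I, III and IV and of the ATP synthase is encoded by mitochondrial DNA, whose reads the authors removed, and the genes described here are the nuclear ones.

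Many of these nuclear promoters hold short letter runs that are known as binding motifs of the factors NRF1, ETS (such as GABP) and YY1. The RefSeq promoters shown here run from 250 bases before to 50 after the gene start in the GRCr8 build, printed 5′ to 3′ on the gene's strand. They are the available promoters among the 5 called as different between ages by the limits given below (*Ndufaf4*, *Ndufs7*, *Cox6b2* and *Atp5g1*), the most accessible one (*Ndufa11*) and one of complex II that was not called (*Sdhb*). The calls at *Ndufaf4* and *Atp5g1* were lost when some single libraries were left out. Capitals mark any match, on either strand, to 1 of 6 runs searched, which were GCATGCG (NRF1 core), CCGGAAG (ETS), AAGATGG (YY1), GGGCGG (SP/KLF), TGACGTC (cAMP response element) and CACGTG (E-box). The ACS coordinates below are in the Rn5 build and cannot be laid over these windows.
Ndufaf4 (chr5:43401545-43401844, + strand): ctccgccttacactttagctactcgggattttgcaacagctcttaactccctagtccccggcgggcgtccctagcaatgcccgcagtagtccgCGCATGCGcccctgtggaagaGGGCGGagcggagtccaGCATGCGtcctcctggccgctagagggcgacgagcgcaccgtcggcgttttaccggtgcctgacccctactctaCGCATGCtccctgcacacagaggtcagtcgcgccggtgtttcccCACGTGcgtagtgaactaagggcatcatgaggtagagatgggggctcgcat
Ndufs7 (chr7:10110449-10110748, - strand): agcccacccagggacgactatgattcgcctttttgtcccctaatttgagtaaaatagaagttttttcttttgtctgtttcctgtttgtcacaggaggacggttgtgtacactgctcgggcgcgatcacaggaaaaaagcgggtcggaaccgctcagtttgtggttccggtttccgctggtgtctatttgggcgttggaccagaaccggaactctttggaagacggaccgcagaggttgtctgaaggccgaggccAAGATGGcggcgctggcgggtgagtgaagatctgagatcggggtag
Cox6b2 (chr1:78122621-78122920, + strand): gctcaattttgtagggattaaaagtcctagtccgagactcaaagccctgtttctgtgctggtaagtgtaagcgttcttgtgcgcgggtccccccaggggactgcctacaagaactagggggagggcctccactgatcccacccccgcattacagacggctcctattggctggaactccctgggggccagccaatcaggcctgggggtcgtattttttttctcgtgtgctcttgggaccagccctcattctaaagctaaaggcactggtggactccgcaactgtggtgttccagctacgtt
Atp5g1 (chr10:81523296-81523595, - strand): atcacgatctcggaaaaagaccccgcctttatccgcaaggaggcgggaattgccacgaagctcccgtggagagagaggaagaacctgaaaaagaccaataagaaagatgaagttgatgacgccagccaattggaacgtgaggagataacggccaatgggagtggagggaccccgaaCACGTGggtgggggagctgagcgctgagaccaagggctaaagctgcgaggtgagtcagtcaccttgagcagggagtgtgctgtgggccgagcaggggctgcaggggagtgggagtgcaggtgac
Ndufa11 (chr9:1637364-1637663, + strand): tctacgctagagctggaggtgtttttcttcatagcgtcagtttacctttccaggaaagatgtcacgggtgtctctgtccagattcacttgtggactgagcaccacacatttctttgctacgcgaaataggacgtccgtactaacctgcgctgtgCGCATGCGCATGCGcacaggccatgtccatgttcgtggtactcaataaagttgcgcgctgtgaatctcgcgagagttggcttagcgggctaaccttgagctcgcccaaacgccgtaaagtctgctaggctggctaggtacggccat
Sdhb (chr5:158547684-158547983, + strand): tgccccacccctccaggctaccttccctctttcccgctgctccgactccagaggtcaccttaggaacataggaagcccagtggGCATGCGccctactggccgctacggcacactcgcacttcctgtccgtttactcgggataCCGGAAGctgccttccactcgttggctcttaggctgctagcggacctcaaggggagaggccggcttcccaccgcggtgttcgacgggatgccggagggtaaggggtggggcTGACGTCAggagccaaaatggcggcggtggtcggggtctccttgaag

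The *Ndufaf4* window held 4 NRF1 core matches with first bases at -157, -156, -119 and -45 from the gene start, an SP/KLF match at -136 and an E-box at -1. The first pair is 1 run read on both strands. The *Ndufa11* window held 4 overlapping NRF1 core matches between -96 and -89. In *Sdhb*, an NRF1 core match stood at -167, an ETS match at -108 and the cAMP response element at 4 and 5. The *Ndufs7* window held 1 YY1 match at 5, *Atp5g1* held 1 E-box at -74, and none of the 6 runs was in the *Cox6b2* window.

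Promoters were available for 64 of the 72 gene symbols. At least 1 of the NRF1, ETS and YY1 runs was present in 35 of these 64 (54.7%), against 17.5% of all 33469 promoters of the table and 28.6% of the 8293 promoters whose gene has an ACS at its start in these islets. The NRF1 core was in 13 (20.3%, against 3.33% of all promoters and 6.32% of those with an ACS), ETS in 19 (29.7%, against 8.75% and 17.9%) and YY1 in 15 (23.4%, against 7.01% and 7.95%). All of these 3 runs were present in *Atp5i*, *Atp5j* and *Ndufa6*. The SP/KLF run was in 27 (42.2%), a share above that of all promoters (33.1%) and below that of promoters with an ACS (65.9%). The cAMP response element was in 4 (6.25%, against 3.22% and 5.81%) and the E-box in 5 (7.81%, against 6.42% and 9.72%). GC content had a median of 57.0% in the 64 windows, against 55.0% in all protein-coding promoters and 61.7% in those with an ACS. The median count of CpG (C followed by G) was 20, against 11 and 21. Protein-coding genes own 21842 of the 33469 promoters, so the shares of all promoters include other gene types. In the 55 of the 64 whose gene has an ACS at its start, the NRF1 core was in 18.2%, ETS in 32.7% and YY1 in 23.6%.

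The chain genes also often had another gene start close by on the opposite strand, counted whether the genes point apart or overlap. In GRCr8, 14 of the 64 (21.9%) had the start of a protein-coding gene on the opposite strand within 1000 bp, against 7.88% of 21842 protein-coding genes and 8.72% of the 8246 with an ACS at their start. Examples are *Ndufs1* with *Eef1b2*, *Ndufa7* with *Rps28*, *Sdhd* with *Timm8b* and *Atp5j* with *Gabpa*, which itself encodes a subunit of the ETS factor GABP. Such pairs may be served by 1 open site, which the nearest-gene rule gives to only 1 of them. Among these examples, *Ndufs1*, *Ndufa7* and *Sdhd* had an ACS at their start, and none was found at that of *Atp5j*.

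The 310 chain ACS were divided by distance from the gene start. There were 65 TSS-class ACS (within 1 kb) at 61 genes, 27 proximal ACS (1 to 10 kb) at 22 genes and 218 distal ACS (over 10 kb) at 31 genes. TSS-class ACS were 21% of the chain ACS and 10.9% of all ACS. Of the 72 genes, 33 had 1 ACS and 4 had 20 or more, and these 4 genes held 84 of the 310. The distal ACS lay at a median of 85726 bp from the start, 18 lay over 500000 bp away and the farthest 1747661 bp away, so the name of such a site says little about its gene.

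The libraries held 7916919 to 21168463 Tn5 integrations within ACS, fewer in the Adult (7916919 to 11903909) than in the P10 libraries (13491534 to 21168463). Counts were scaled to library size as CPM after TMM, whose factors lay between 0.93 and 1.04, and the ages were compared with edgeR's quasi-likelihood test over all ACS. A positive log2 fold change means higher accessibility in Adult, and an ACS was called Up or Down where p was below 0.05 and the FDR below 0.2. Replicates of 1 age differed by more than counting error (chi-square per degree of freedom 3.35 to 7.81). The summed CPM of ACS nearest to marker genes showed beta cell genes at 905 to 1043 in Adult and 851 to 1153 in P10, with 7 of 8 markers having an ACS and *Mafa* none. Adult libraries lay above P10 without overlap for 4 of the 10 marker lists, namely alpha cell (944 to 1080 against 812 to 902, 6 of 6 markers), duct (244 to 277 against 212 to 236, 4 of 6), endothelial (513 to 600 against 467 to 500.2, 8 of 8) and immune genes (84.7 to 95 against 67.3 to 77.9, 6 of 8). *Krt7*, *Aif1*, *Cd68* and, in the other lists, *Cel*, *Acta2*, *Mki67* and *Actn3* had no ACS. The other lists overlapped between ages. At the gene starts alone, the delta cell list (20.3 to 25.4 against 30.4 to 38.7, 4 ACS) and the duct list (17.5 to 20.2 against 24.7 to 34.4, 3 ACS) lay lower in Adult without overlap and the immune list lay higher (29.5 to 38.4 against 21.9 to 22.2, 2 ACS). The muscle and brown fat list had no ACS at a start, and the remaining 6 lists overlapped there. The part of cell composition in the values below was not tested, and in bulk islets fewer cells of a type and less signal per cell cannot be told apart.

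TSS-class ACS stood at 61 of the 72 genes, and the share of these ACS called was near that of all TSS-class ACS. Each ACS is a peak called on the pooled reads of either age, so an open site was a condition of entry. Of the 65 TSS-class ACS, 5 were called, 1 Up and 4 Down (7.69%), against 10.6% of all TSS-class ACS (2.73% Up and 7.87% Down). The median log2 fold change was -0.11, against -0.10 over all TSS-class ACS. The 95% interval lay within a 2-fold change in either direction at 59 of the 65 and within a 1.5-fold change at 32, so a change of over 2-fold was outside the interval at most of these promoters. Adult and P10 libraries overlapped at 57, adults lay above at 1 and below at 7, against 5.24% above and 15.6% below over all TSS-class ACS.

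The accessibility of the promoters themselves covered a wide range. Per kb of site width, mean levels ran from 6.81 CPM at *Atp5l*, a membrane subunit of the ATP synthase, to 102.1 CPM at *Ndufa11*, a membrane subunit of complex I, and the median was 25.8 CPM per kb. The *Cox7c* promoter, of a small complex IV subunit, followed with 101.8 CPM per kb. The next were *Ndufa4* with 76.9, *Ndufb2* with 75.7, *Ndufa5* with 73.4 and *Atp5e* with 69.3. The *Ndufa11* ACS held 118, 117 and 114 CPM in Adult and 139, 123 and 107 in P10. At *Cox7c* the values were 107, 76.3 and 81.7 in Adult and 81.0, 81.2 and 88.0 in P10. The spread within an age covered the difference between the ages at both sites, so the order of the ages is not resolved there. Before division by site width, the mean was 119.6 CPM at *Ndufa11* and 85.8 CPM at *Cox7c*.

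Complex I, which oxidises NADH, had 27 TSS-class ACS at 25 subunit genes, of which 0 were called Up and 1 Down by edgeR, by DESeq2 and by limma voom, and no other had an unadjusted p-value under 0.05 in any of the 3 tools. That ACS was the promoter of *Ndufs7*, a core subunit that carries an iron-sulphur cluster next to the ubiquinone site (chr7:12495707-12496263). It held 4.88, 5.75 and 6.19 CPM in the Adult libraries and 9.76, 11.5 and 8.88 in P10, without overlap. The log2 fold change was -0.84 ± 0.25 (SE, n = 3 per age, edgeR FDR 0.0293), and the call held when any 1 library was left out.

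No TSS-class ACS of another core subunit was called. The promoter of *Ndufs1*, the large iron-sulphur subunit of the NADH-oxidising arm (chr9:69761844-69762829), held 37.2, 30.1 and 36.6 CPM in Adult and 32.1, 31.5 and 34.6 in P10 (log2 fold change 0.08, 95% interval -0.26 to 0.42). *Ndufv1*, which binds NADH, gave -0.25 (-0.70 to 0.20). *Ndufv2*, *Ndufs3* and *Ndufs8* gave 0.00, -0.21 and -0.07. The 20 TSS-class ACS of accessory subunits lay between -0.40 (*Ndufa13*) and 0.13 (*Ndufa5*), with a median of -0.07, and all 20 intervals lay within 2-fold. The lowest level was at the second *Ndufb6* ACS, with 1.81, 1.85 and 2.84 CPM in Adult and 2.60, 1.57 and 1.90 in P10, where the interval was the widest (-0.71 to 0.83).

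The assembly factors of complex I, which are not part of the finished enzyme, had 5 TSS-class ACS, and 1 was called. The promoter of *Ndufaf4* (chr5:43880298-43880966), needed at an early step of assembly, held 51.7, 38.2 and 44.2 CPM in Adult and 32.8, 37.4 and 31.1 in P10. The lowest Adult library lay just above the highest P10 library. The log2 fold change was 0.41 ± 0.17 (edgeR FDR 0.146). The call was lost without Adult library 4 (0.29, FDR 0.408), Adult library 6 (FDR 0.238) or any 1 P10 library (FDR 0.231 to 0.388), and with column sums as library sizes (0.31, FDR 0.240). *Ndufaf6* gave 0.31 (-0.03 to 0.66) and *Ndufaf1* 0.29 (-0.42 to 1.01), and *Ndufaf3* and *Atp5sl* gave -0.29 and -0.16.

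Complex II, which feeds electrons from succinate and is also an enzyme of the citric acid cycle, had TSS-class ACS at *Sdhb*, *Sdhc* and *Sdhd*, and edgeR, DESeq2 and limma voom each called 0 of the 3, with 0 at an unadjusted p-value under 0.05. The *Sdhb* promoter, of the iron-sulphur subunit (chr5:163196618-163197271), held 30.3, 28.3 and 24.2 CPM in Adult and 35.1, 31.5 and 28.9 in P10, with a log2 fold change of -0.20 (-0.56 to 0.15). *Sdhc* and *Sdhd*, the membrane anchors, gave -0.05 (-0.46 to 0.37) and 0.02 (-0.40 to 0.43).

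Complex III, which passes electrons from ubiquinol to cytochrome c, had 5 TSS-class ACS, and edgeR, DESeq2 and limma voom each called 0, with 1 at an unadjusted p-value under 0.05. This was *Uqcrc2*, a core protein of the matrix arm (chr1:197480153-197481025), with -0.41 (-0.81 to -0.01, FDR 0.221) and no overlap between ages. *Uqcrc1*, its partner, gave -0.28 (-0.73 to 0.16). The promoter of *Uqcrfs1*, the Rieske iron-sulphur protein (chr17:36991220-36992221), held 47.3, 42.4 and 45.4 CPM in Adult and 45.4, 45 and 49.2 in P10 (-0.05, interval -0.37 to 0.27).

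Complex IV, cytochrome c oxidase, had 11 TSS-class ACS with 2 called, both Down. *Cox6a1*, the form of subunit VIa found in most tissues (chr12:48817374-48818062), held 5.42, 6.04 and 8.12 CPM in Adult and 10.6, 10.7 and 13.9 in P10. All Adult libraries lay below all P10 libraries, with a log2 fold change of -0.86 ± 0.25 (edgeR FDR 0.0248). *Cox6b2*, the form of subunit VIb known from testis (chr1:75874309-75874658), held 1.45, 1.85 and 2.06 CPM in Adult and 4.0, 4.07 and 3.28 in P10. This was the largest change among the chain promoters (-1.09 ± 0.34, FDR 0.0430), at one of the least open of them (7.95 CPM per kb). Both calls held when any 1 library was left out.

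The tissue forms of complex IV subunits could be compared only in part, since none of the 310 ACS was named for *Cox4i1*, *Cox6a2*, *Cox6b1* or *Cox7a1*. Whether an ACS named for another gene lies at their starts was not looked up. *Cox8a*, the general form of subunit VIII, had an ACS at its start with 25.8, 26.6 and 17.7 CPM in Adult and 33.1, 30.0 and 23.1 in P10 (-0.29, interval -0.69 to 0.11). *Cox8b*, known from heart, muscle and brown fat, had its nearest ACS 7522 bp upstream (6.57 to 10.4 CPM in Adult and 10.9 to 12.9 in P10, -0.34, FDR 0.440). *Cox8c*, known from testis, had its nearest ACS 12950 bp upstream (4.0 to 5.51 CPM in Adult and 3.38 to 5.62 in P10). None of these 3 nearest ACS was called. *Cox7a2* (-0.06, interval -0.44 to 0.31) and *Cox7a2l*, which helps complexes III and IV to associate (-0.14, interval -0.50 to 0.22), were both open at the start. *Ndufa4*, once counted to complex I and now placed with complex IV, held 74.6, 63.7 and 78.2 CPM in Adult and 63.8, 77.7 and 75.9 in P10 (-0.01, interval -0.32 to 0.31). Its hypoxia-responsive relative *Ndufa4l2* had its nearest ACS 2213 bp upstream, with 17.6, 13.9 and 11.5 CPM in Adult and 16.0, 13.8 and 15 in P10.

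The ATP synthase had 13 TSS-class ACS at 11 genes, and 1 was called. *Atp5g1*, *Atp5g2* and *Atp5g3* encode the same mature c subunit of the proton-driven ring with different leader peptides, and the changes at their promoters were not tested against each other. The *Atp5g1* ACS (chr10:83703161-83703952) held 39.8, 30.2 and 22.6 CPM in Adult and 40.0, 48.9 and 37.1 in P10, and was called Down at -0.44 ± 0.19 (edgeR FDR 0.165), although Adult library 4 lay within the P10 range. This call was lost without Adult library 5 (FDR 0.242), Adult library 6 (-0.26, FDR 0.544) or P10 library 2 (-0.34, FDR 0.498), with DESeq2 (FDR 0.202) and with TMM factors from TSS-class ACS (-0.36, FDR 0.227). The main *Atp5g2* ACS gave -0.26 (-0.68 to 0.15), a second at 840 bp gave -0.59 (-1.26 to 0.08), and *Atp5g3* gave 0.04 (-0.36 to 0.43). Per kb, the *Atp5g1* ACS held 46.0 CPM, the main *Atp5g2* ACS 27.5 and the *Atp5g3* ACS 15.6. The catalytic subunits gave 0.21 (-0.18 to 0.60) for *Atp5a1* and -0.14 (-0.49 to 0.22) for *Atp5b*, both with overlapping ages.

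**Figure D1:**
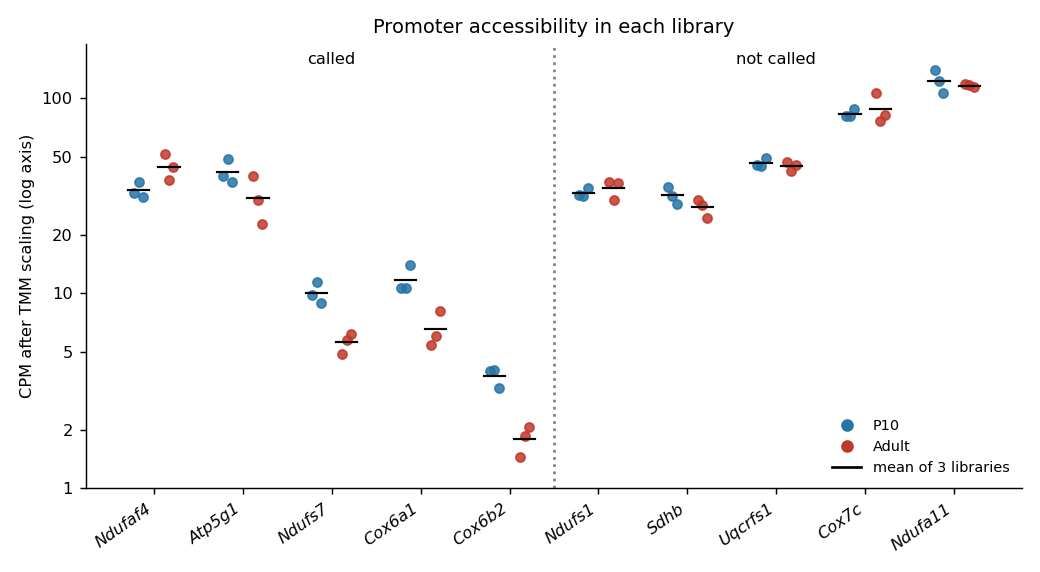
CPM (log axis) in each of the 3 P10 and 3 Adult libraries at the 5 called promoters and at 5 that were not called, with bars at the mean. At *Ndufs7*, *Cox6a1* and *Cox6b2* the Adult points lie below all P10 points, at *Ndufaf4* just above, and at *Atp5g1* the ages overlap.

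Summed over genes, the chain promoters held a part of the promoter signal that overlapped between the ages. The 65 TSS-class ACS held 0.599%, 0.585% and 0.588% of the integrations in all TSS-class ACS in Adult and 0.613%, 0.602% and 0.575% in P10. Complex I held 0.233% ± 0.00097 (SD, n = 3) in Adult and 0.236% ± 0.011 in P10. For complex III the shares were 0.0518% ± 0.0031 and 0.0559% ± 0.0019, for complex IV 0.114% ± 0.0037 and 0.117% ± 0.0030, and for complex V 0.0951% ± 0.0058 and 0.10% ± 0.0075. Complex II held 0.0243% ± 0.0012 and 0.0250% ± 0.0022. The libraries of both ages overlapped in each complex, and leaving out P10 library 1 turned the difference for all 65 from -0.00601 to 0.00226 percentage points, for complex I from -0.00279 to 0.00237 and for complex II from -0.00071 to 0.0001.

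No ACS of their own stood within 1 kb of the start of 11 genes, namely *Atp5c1*, *Atp5j*, *Cox4i2*, *Cox8b*, *Cox8c*, *Ndufa4l2*, *Ndufa8*, *Ndufaf5*, *Ndufaf7*, *Ndufb11* and *Sdha*. For 5 of them an ACS did overlap the start and was assigned to the gene on its other side. This lookup was made after the values had been seen. The start of *Sdha*, the flavoprotein of complex II, lay in an ACS named for *Ccdc127* (chr1:32971285-32972224) with 29.5, 25.4 and 26.9 CPM in Adult and 23.1, 34.2 and 35.4 in P10 (-0.18 ± 0.19). That of *Atp5c1*, the central stalk subunit, lay in an ACS named for *Kin* (0.23 ± 0.15), that of *Ndufaf7* in one named for *Cebpz* (-0.14 ± 0.16) and that of *Ndufb11* in one named for *Rbm10* (-0.16 ± 0.19). The ACS at the shared start of *Ndufaf5* and *Esf1* (chr3:139687808-139688848) held 19.5, 16.1 and 18.7 CPM in Adult and 24.5, 30.2 and 29.7 in P10, and was called Down (-0.64 ± 0.19, edgeR FDR 0.0287). It is not among the 310, and the other 4 were not called.

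Most of the called chain ACS lay away from promoters, as in the whole data. Over every class, 55 of the 310 were called (17.7%), 33 Up and 22 Down, against 18.9% of all ACS (12.3% Up and 6.63% Down). Of the 218 distal ACS, 30 were called Up and 17 Down (21.6%), against 20.2% of all distal ACS (13.8% Up and 6.45% Down), and the median log2 fold change was 0.13 against 0.02. Of the 27 proximal ACS, 2 were Up and 1 Down (11.1%), against 17.9% of all proximal ACS (11.2% Up and 6.71% Down). The 55 fell at 25 genes. Adult lay above P10 without overlap at 36 and below at 33 of the 310, against 13.8% and 10.9% of all ACS. Of the 33 Up calls, 25 had no overlap between ages and 18 held when any 1 library was left out, and of the 22 Down calls 19 had no overlap and 7 held. The like shares for the calls of all ACS were not worked out, so these counts describe no trait of the chain ACS. Without P10 library 2 the Down calls of all ACS also fell, from 6738 to 3285. With column sums as library sizes, 29 were Up and 29 Down (10447 and 10732 of all ACS), and with total sequenced reads 4 were Up and 191 Down (1062 and 61663 of all ACS). The split between Up and Down therefore moves with the scaling, which shifted the median of all ACS from -0.01 to -0.10 and -0.84, and the calls are relative to the TMM scaling.

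**Figure D2:**
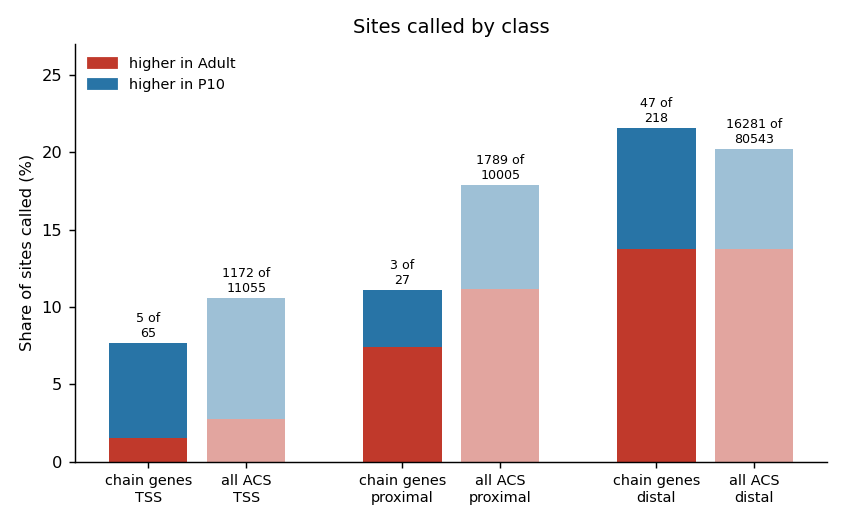
Share of ACS called (%), higher in Adult (red) and higher in P10 (blue), for the chain ACS (full colour) and all ACS (pale) in each class, with counts above the bars. The chain ACS stand at 7.69% against 10.6% at the TSS, and at 21.6% against 20.2% in the distal class.

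At 17 genes a distal ACS was called and a TSS-class ACS existed, and at 3 of these 17 the TSS-class ACS was called too. The same count over all genes was not made. In the whole data 10.6% of TSS-class and 20.2% of distal ACS were called, so this count is not a trait shown for the chain genes. *Ndufs1* had the largest rise of all 310 in the edgeR fit, at 40587 bp downstream of its start (chr9:69721492-69721705). This ACS held 11.9, 8.18 and 11.3 CPM in Adult and 2.14, 2.07 and 1.32 in P10 (2.50 ± 0.29, edgeR FDR 2.38e-06), while the promoter did not differ beyond its spread. *Uqcrfs1* showed the same with a proximal ACS 7112 bp downstream (chr17:36998700-36998952), which held 12.6, 12.7 and 12.9 CPM in Adult and 2.18, 2.50 and 3.22 in P10 (2.27 ± 0.26, FDR 1.82e-06). A second *Uqcrfs1* ACS 286197 bp upstream (chr17:36705391-36705680) held 12.4, 14.6 and 12.4 CPM in Adult and 4.6, 1.64 and 3.59 in P10 (1.97 ± 0.29, FDR 4.11e-05). These 3 rises, and 2.17 at *Ndufaf4*, kept their direction and call also with total sequenced reads (1.10 to 1.64). *Uqcrfs1* had the most chain ACS, 23, of which 3 were Up and 0 Down by edgeR (5 and 0 at an unadjusted p-value under 0.05), 3 and 0 by DESeq2 and 4 and 0 by limma voom.

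*Sdha* had a called ACS inside the gene, 1358 bp from its start (chr1:32973137-32973347), with 11.2, 7.01 and 7.86 CPM in Adult and 3.72, 3.71 and 4.12 in P10 (1.18 ± 0.27, edgeR FDR 0.00475). It lay just past the ACS at the shared *Sdha* and *Ccdc127* start, which was not called.

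**Figure D3:**
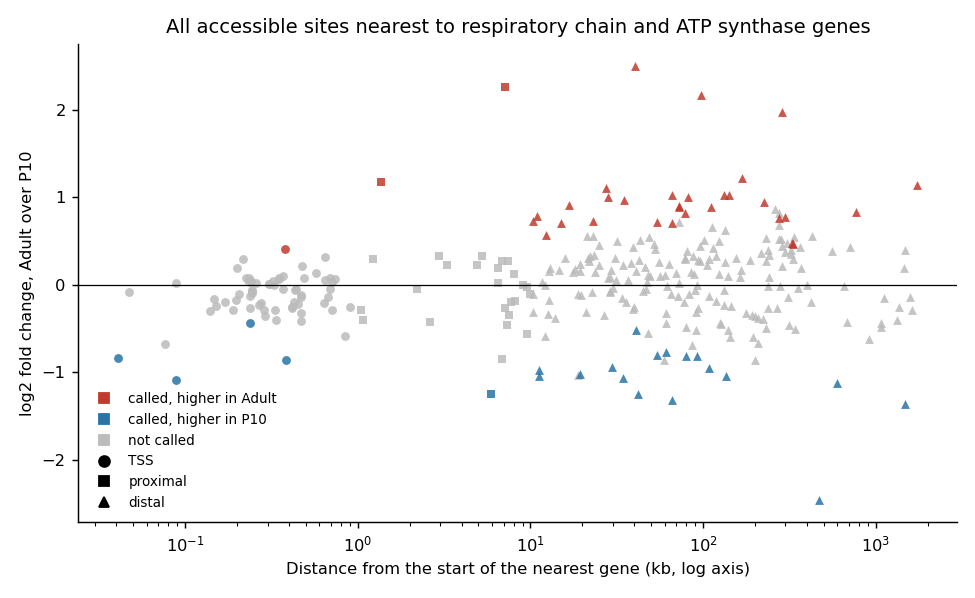
Log2 fold change, Adult over P10, of all 310 chain ACS against the distance from the gene start (kb, log axis), with symbols for the class and colours for the call. Called ACS are few within 1 kb and stand in both directions beyond 10 kb, with the largest rises at *Ndufs1* (2.50) and *Uqcrfs1* (2.27) and the largest fall near *Cox7c* (-2.47).

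Of the 54 ACS at the 7 genes of complex I assembly factors, 13 were Up (24.1%, against 12.3% of all ACS) and 1 was Down (1.85%, against 6.63%). The median log2 fold change was 0.34, against -0.01 over all ACS. *Ndufaf4* accounted for 6 of the 13 rises and for the fall, out of 21 ACS. The strongest stood 96833 bp upstream (chr5:43783846-43784116) and held 27.1, 19.4 and 18.6 CPM in Adult and 5.86, 4.35 and 4.18 in P10 (2.17 ± 0.24, edgeR FDR 8.66e-07). Only 4171 bp away, the ACS at chr5:43788288-43788643 went the other way, with 6.87, 5.75 and 6.57 CPM in Adult and 14.3, 7.56 and 11.9 in P10 (-0.82 ± 0.26, FDR 0.0425). The groups overlapped at neither. The most open *Ndufaf4* ACS, 36733 bp upstream, gave 0.06 (FDR 0.890). A rise and a fall thus stood side by side upstream of this gene. *Ndufaf6* had 3 Up of 8 ACS, with 17.8, 12.9 and 20.2 CPM in Adult and 10.3, 7.70 and 7.35 in P10 at the ACS 28203 bp downstream (1.0 ± 0.23, FDR 0.00524). *Ndufaf5*, an enzyme that modifies *Ndufs7* protein during assembly, had 20 ACS with a median of 0.45, of which 3 were Up and 0 Down by edgeR, the same numbers at an unadjusted p-value under 0.05, and 2 Up and 0 Down by DESeq2 and by limma voom. These 3 lay 298147 to 333232 bp away, overlapped between ages (57.0, 67.7 and 46.0 CPM in Adult and 32.8, 48.9 and 42.7 in P10 at the most open) and each lost the call without at least 3 of the single libraries.

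**Figure D4:**
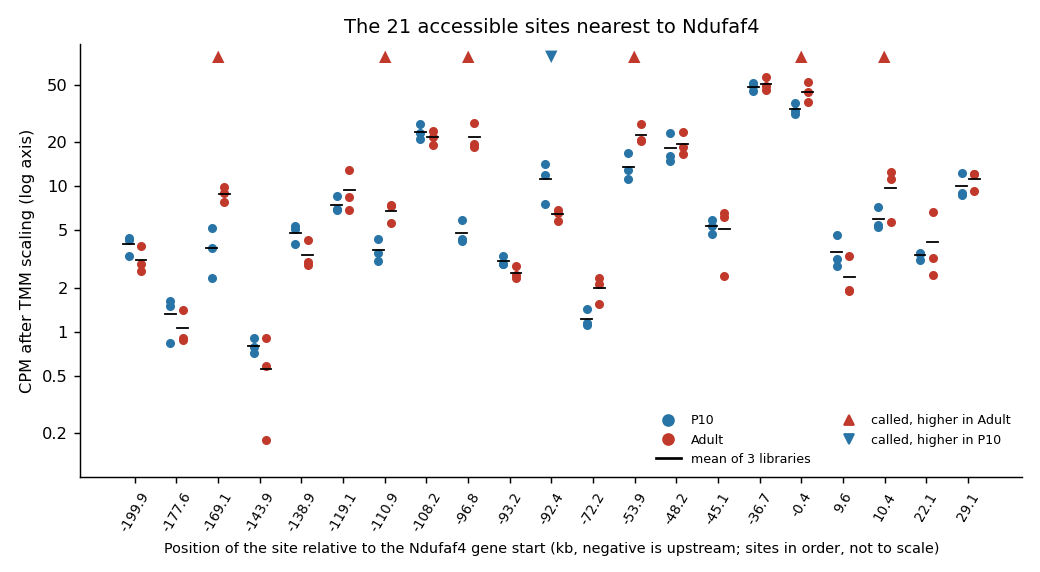
CPM (log axis) in each library at the 21 ACS nearest to *Ndufaf4*, in order of position from the gene start (kb, negative is upstream), with triangles for called ACS. The ACS 96833 bp upstream is higher in all Adult libraries and the one 92391 bp upstream lower, while at the most open, 36733 bp upstream, the ages overlap.

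Of the 68 ACS at complex IV genes, 2 were Up (2.94%, against 12.3% of all ACS) and 11 were Down (16.2%, against 6.63%), and the median log2 fold change was -0.12. *Cox7c* had 4 of these falls, all far from its promoter, which was not called. The ACS 1489232 bp upstream (chr2:16044659-16045180) held 9.31, 12.9 and 7.35 CPM in Adult and 21.9, 25.2 and 29.2 in P10 (-1.36 ± 0.22, edgeR FDR 0.000139). The one 470555 bp upstream (chr2:15025982-15026349) had the largest fall at a low level, with 0.27, 0.10 and 0.39 CPM in Adult and 1.16, 0.93 and 2.01 in P10 (-2.47 ± 0.59, FDR 0.00676), and DESeq2 gave it no adjusted p. A further one, 1747661 bp upstream, was Up, with 10.8, 11.4 and 10.3 CPM in Adult and 3.86, 5.06 and 5.82 in P10 (1.14 ± 0.25, FDR 0.00316). The called ACS near *Cox7c* thus moved in both directions. *Cox6a1* was Down at its promoter and at 2 distal ACS, at 11211 bp (-0.97) and 34211 bp (-1.07) upstream. The farther of these held 0.90, 0.88 and 0.90 CPM in Adult and 2.0, 1.78 and 1.85 in P10, and its call was lost without any 1 library except Adult library 5 (FDR 0.202 to 0.230). *Cox4i2*, the form of subunit IV known from lung, had no ACS at its start and a Down ACS 29829 bp downstream (2.44, 3.80 and 4.12 CPM in Adult and 8.55, 3.85 and 7.08 in P10, -0.94 ± 0.32, FDR 0.0645), a call lost without Adult library 4 or P10 library 1.

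At complex I subunit genes, some of those with several called ACS had both directions and some had 1. *Ndufb6* had 3 Up and 1 Down of 7 ACS, with 11.6, 11.0 and 12.8 CPM in Adult and 6.65, 4.49 and 7.72 in P10 at the farthest Up ACS (0.89 ± 0.25, edgeR FDR 0.0193). *Ndufa8* had 2 Up and 2 Down of 14, and its ACS 82290 bp downstream held 40.8, 24.1 and 21.5 CPM in Adult and 19.1, 11.3 and 12.6 in P10 (1.0 ± 0.23, FDR 0.00524). *Ndufa12* had 2 Up and 0 Down of 7, 72753 and 78389 bp downstream (0.90 ± 0.22 and 0.82 ± 0.22). *Ndufb9* had 1 Up of 8 (15.8, 12.3 and 12.5 CPM in Adult and 7.81, 6.99 and 5.13 in P10, 1.03 ± 0.24, FDR 0.00545). The Down ACS at *Atp5l* (-0.51), *Ndufa4* (-1.12) and the nearer one at *Ndufa8* (-0.77) each lost the call when one of at least 2 libraries was left out. Up and Down ACS stood together at 7 genes, *Atp5j*, *Atp5l*, *Cox7c*, *Ndufa4*, *Ndufa8*, *Ndufaf4* and *Ndufb6*. The same count over all genes was not made, and a gene with many ACS, such as *Ndufaf4* with 21, has more room for both directions.

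Among ATP synthase genes 4 of 68 ACS were Up (5.88%, against 12.3% of all ACS) and 4 were Down (5.88%, against 6.63%). The start of *Atp5j* lies within 1000 bp of that of *Gabpa* on the opposite strand, and no ACS was found within 1 kb of the *Atp5j* start. An Up ACS stood 132643 bp upstream of *Atp5j* (11.1, 9.54 and 8.12 CPM in Adult and 3.95, 4.99 and 5.29 in P10, 1.02 ± 0.26, edgeR FDR 0.00951). Another of the 8 *Atp5j* ACS was called Down, with overlapping ages, and the lowest log2 fold change at this gene was -1.24. *Atp5g1* was Down 53858 bp upstream as well as at its promoter (10.3, 8.86 and 5.03 CPM in Adult and 17.6, 12.3 and 12.7 in P10, -0.80 ± 0.25, FDR 0.0436), and that call was lost without Adult library 6 (-0.57, FDR 0.217). *Atp5g3* had 20 ACS, of which 1 was Up, and its ages overlapped there (14.9, 6.52 and 17.8 CPM in Adult and 3.86, 8.56 and 8.04 in P10). That call (0.94 ± 0.31) was lost without Adult library 6 (0.67) or P10 library 1 (0.64). In complex III, *Uqcrc2* had 2 Down of 7, at low levels (0.90, 1.36 and 1.80 CPM in Adult and 2.84, 4.28 and 2.48 in P10 at 42066 bp upstream, -1.25 ± 0.39, FDR 0.0410), and both calls were lost without P10 library 2, the other one also without Adult library 5.

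The groups may differ in sex, since the Adult rats were male and the sex of the pooled pups is not given. On the X chromosome lay 4 chain ACS, at *Cox7b*, *Ndufa1* and *Ndufb11*. EdgeR, DESeq2 and limma voom each called 0 of the 4, with 0 at an unadjusted p-value under 0.05. Only 1 of the 4 intervals lay within a 2-fold change, so the absence of calls there says little. Their median was -0.05, against -0.14 over all 2587 ACS of that chromosome and -0.004 over the autosomes. Of all X chromosome ACS, 6.88% were Up and 9.20% Down, against 12.4% and 6.56% of autosomal ACS. The part of sex in this difference was not tested.

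A second list held 59 genes that carry electrons, feed the chain or help to assemble it but fall outside the symbol rule, and 42 of them had 155 ACS. At their starts 0 of 41 were Up and 2 Down by edgeR, the same numbers at an unadjusted p-value under 0.05, with 0 and 2 by DESeq2 and 0 and 1 by limma voom, against 2.73% Up and 7.87% Down of all TSS-class ACS. The 2 were *Higd1a*, a small protein bound to complexes III and IV, with 25.9, 27.6 and 24.5 CPM in Adult and 38.4, 40.8 and 36.8 in P10 (-0.57 ± 0.17, FDR 0.0279), and *Atpif1*, the inhibitor of the ATP synthase (-0.72 ± 0.32, FDR 0.183). Over every class 15 were Up and 10 Down (16.1%, against 18.9% of all ACS). *Cycs*, cytochrome c, was Up at 3 ACS away from its start, with 12.4, 9.54 and 10.1 CPM in Adult and 5.02, 3.64 and 5.23 in P10 at 145831 bp (1.2 ± 0.25, FDR 0.00238). The largest change was at *Tmem186*, a complex I assembly factor, 13516 bp from its start (11.0, 9.84 and 8.38 CPM in Adult and 4.37, 3.49 and 2.27 in P10, 1.53 ± 0.28). The median log2 fold change was -0.05 at their starts and -0.03 over every class.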

How the data were processed

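ATAC-seq libraries of 3 Adult and 3 P10 islet preparations were analysed. The authors aligned reads to Rn5 with BWA 0.7.13, removed mitochondrial and low-quality reads, called peaks with MACS2 2.1.1 on pooled reads of each age, merged them and deposited raw counts, one per ACS and library, of Tn5 integrations (pyDNase). Their own comparison columns (log2 fold change, log2 CPM, F, p-value, FDR) were not used, and 0 columns of library counts were left out. Removal of PCR duplicates is not given in the sources used here. The 101941 entries hold 101603 distinct ACS, each tested once. Some genes are not reported here by name.

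The counts were tested with edgeR 4.0.16 (R 4.3.3; quasi-likelihood, TMM, age as the only term, no filter), with Benjamini-Hochberg adjustment over all ACS. SE is the log2 fold change over the square root of F, and intervals are at 95%. The script was tested on simulated data. Alternatives were other library sizes, DESeq2 1.42.0, limma voom 3.58.1, a low-count filter, FDR under 0.05 and leaving out each library. Named ACS were the 15 called with the smallest p per direction, the most and least open promoter per complex, core subunits, isoform groups and genes with most ACS, and others named for a count were chosen after their values were seen. Members and lists were chosen with earlier results of these data known.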

Additional observations from a re-analysis of the deposited data

How the results depend on the processing

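The directions of the 55 called chain ACS are relative to the scaling. With total sequenced reads as library sizes, 62725 of all ACS were called (1062 Up, 61663 Down), 195 chain ACS (4 Up, 191 Down), 62 at the TSS (0 Up, 62 Down) and 105 of the second gene list (0 Up, 105 Down), and 8 named rises turned negative, at *Ndufa12* (-0.063), *Ndufaf4* (-0.14, -0.43 at the promoter and -0.073), *Ndufaf5* (-0.055, -0.32 and -0.33) and *Uqcrfs1* (-0.071). With column sums, 10732 of all ACS were Down, 0 chain promoters were Up and 7 Down, and 20 ACS of the second list were Down. With TMM on TSS-class ACS, 4414 of all ACS were Down and 2 chain promoters Up. At an FDR under 0.05, 9122 of all ACS (7177 Up, 1945 Down), 28 chain ACS (19 Up, 9 Down), 3 chain promoters (0 Up) and 13 ACS of the second list (1 Down) remained past the limit. DESeq2, limma voom and the low-count filter (99607 ACS kept) left each of these counts within 1.5 times. Leaving out 1 library gave 11258 to 20447 called ACS (7973 to 13232 Up, 3285 to 7215 Down), 36 to 60 chain ACS (25 to 39 Up, 11 to 23 Down), 3 to 7 chain promoters (0 to 2 Up, 3 to 7 Down) and 17 to 31 of the second list (12 to 21 Up, 5 to 10 Down), with the lowest count of called chain ACS without P10 library 2. The cause of these changes was not tested. Distal chain ACS had a median mean count of 59.4 per library against 270 at the TSS, which limits the smaller changes there. No paired analysis was possible because the Adult and P10 libraries share no replicate number.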
